A study of Mus musculus with 24 samples.

Results

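The genes described here were 10 transcripts tied to glucocorticoid hormone action and metal binding, out of 55797 gene names counted in each library. They were Hsd11b1, Nr3c1, Fkbp5, Tsc22d3, Sgk1, Zbtb16, Mt1, Mt2, Cdkn1a and Nfkbia, taken by gene symbol. All 10 passed the filter on low counts in both tissues. The list was drawn up with the db/db against db/+ results of these libraries already known, so the genotype values below are a description and carry no test for these genes. The RNA came from brains and livers of C57/BL6 males of the db line, in which the leptin receptor gene is mutated in the germ line, so that every tissue carries the allele. Mice were db/db (homozygous) or db/+ (heterozygous) and drank brazzein (a sweet-tasting protein, 3M-Brazzein), sucrose or water, with a treatment entry of 16 weeks. There were 2 libraries for each of 12 groups, 24 in all. The 6 brain groups were db/db on brazzein, db/db on sucrose, db/db on water, db/+ on brazzein, db/+ on sucrose and db/+ on water, and the liver groups were the same. No mouse without the db allele was included. Neither the ages of the mice nor the part of the brain taken were given.

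Glucocorticoids (corticosterone in mice) enter cells and bind the glucocorticoid receptor, the product of Nr3c1, which is held by a chaperone complex until hormone binds and then acts on DNA. The enzyme encoded by Hsd11b1 regenerates active hormone from its inert keto form inside the cell and is abundant in liver. Among the genes that the receptor induces in many tissues, Fkbp5 encodes a co-chaperone that lowers the receptor's affinity for hormone, Tsc22d3 encodes the anti-inflammatory protein GILZ, Sgk1 a kinase that acts on ion channels, and Zbtb16 a zinc finger repressor. Mt1 and Mt2 encode small cysteine-rich metallothioneins that bind zinc and copper and are induced by metals through the factor MTF1 and by glucocorticoids. Cdkn1a encodes the cell cycle inhibitor p21, best known as a target of p53, and Nfkbia encodes IκBα, the inhibitor of NF-κB, which is itself induced by NF-κB and by glucocorticoids. Mice homozygous for the db allele are known for high circulating corticosterone, which was not measured here.

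Expected counts summed to between 58287665 and 77772849 in a brain library and to between 60384569 and 79385804 in a liver library. Replicates correlated at 0.986 to 0.988 in brain and at 0.937 to 0.974 in liver (Pearson's r across genes, log2 CPM). Nothing in the labels says that replicates were separate animals, so the p-values below measure the spread between samples, which may be technical. Sample titles gave the genotype. A separate genotype entry contradicted the title in 12 of the 24 samples and was not used. Lepr, the leptin receptor gene, was at 2.004 to 2.775 CPM in db/db brains against 3.13 to 3.87 in db/+ brains, and at 0.69 to 2.50 CPM in db/db livers against 1.90 to 18.9 in db/+ livers; the db allele alters splicing of the long receptor form, so a count per gene does not check it. The tissue labels matched their markers: 7 neuronal genes summed to 5984 to 6348 CPM in brain and to 0.0586 to 9.84 CPM in liver. The hepatocyte marker Alb was at 42530 to 76800 CPM in liver, at 0 to 4.82 CPM in db/db brains and at 0 in the db/+ brains. The expected counts were near 0 in one library of a group and well above it in the other for some genes, Nr3c1 and Zbtb16 in liver among them. In bulk tissue, fewer cells of a type and less RNA per cell cannot be told apart.

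Promoter windows were read for the metallothionein pair, of which Mt1 had the liver profile nearest to that of Mt2, and for Sgk1, which held the one full glucocorticoid response element found among the genes described here. Windows covered 250 bases before to 50 after an annotated start in RefSeq (build GRCm38.p6, while the libraries were referred to GRCm39). Of the 10 genes, 8 had at least 1 window, 16 windows in all. Metal response elements were searched as TGCACNC or TGCGCNC, and glucocorticoid response elements as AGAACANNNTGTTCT, where N is any base, on both strands, with overlapping matches of 1 motif counted once. Matches stand in capitals, and each window runs 5′ to 3′ on the strand of its gene.
Mt1, chr8:94178839-94179138, plus strand: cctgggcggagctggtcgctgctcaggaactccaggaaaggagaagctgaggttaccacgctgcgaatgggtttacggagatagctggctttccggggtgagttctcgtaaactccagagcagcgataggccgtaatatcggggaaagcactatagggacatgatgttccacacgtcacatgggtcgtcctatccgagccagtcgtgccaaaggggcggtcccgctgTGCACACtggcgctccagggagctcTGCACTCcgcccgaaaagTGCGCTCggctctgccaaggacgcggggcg
Mt2, chr8:94172368-94172667, plus strand: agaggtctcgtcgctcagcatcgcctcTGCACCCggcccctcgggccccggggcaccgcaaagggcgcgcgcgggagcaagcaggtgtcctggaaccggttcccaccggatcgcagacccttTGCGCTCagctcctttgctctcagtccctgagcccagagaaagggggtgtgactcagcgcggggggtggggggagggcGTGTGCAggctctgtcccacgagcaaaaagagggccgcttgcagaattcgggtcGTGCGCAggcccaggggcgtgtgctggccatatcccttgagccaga
Sgk1, chr10:21993640-21993939, plus strand: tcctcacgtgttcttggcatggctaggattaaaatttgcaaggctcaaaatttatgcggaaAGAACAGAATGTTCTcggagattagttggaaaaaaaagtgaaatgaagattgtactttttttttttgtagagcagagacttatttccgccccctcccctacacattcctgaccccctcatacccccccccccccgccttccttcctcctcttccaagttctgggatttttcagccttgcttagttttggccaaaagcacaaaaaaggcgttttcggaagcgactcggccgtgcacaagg
The Mt1 window held 3 metal response elements, whose first bases lay at -23, 2 and 20 relative to the start base, counted as 0. The Mt2 window held 4, whose lowest positions lay at -223, -128, -50 and 4. Of 32851 mouse windows searched the same way, 25.7% held at least 1 such element and 1.31% held 3 or more. The Sgk1 window, 1 of 6 for that gene, held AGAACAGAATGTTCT starting at -189, and 3 of the 32851 windows (0.00913%) held a glucocorticoid response element of these letters. The windows read for Fkbp5, Tsc22d3, Mt1, Mt2, Cdkn1a, Nfkbia and Hsd11b1 held no such element, which says only that these letters were not in these windows.

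In transcript abundance per length (FPKM), Hsd11b1 was far lower in brain than in liver, while the brain ranges of Mt1 and Mt2 lay inside their wider liver ranges. Mt1 was the most abundant of the 10 genes in brain, at 389 to 532 FPKM in db/db brains (median 457) and 345 to 396 FPKM in db/+ brains (median 355). Mt2 followed at 260 to 349 FPKM in db/db brains (median 307) and 193 to 243 FPKM in db/+ brains (median 221). The brain metallothionein Mt3, which is not a member of the list, was at 330 to 353 FPKM in db/db brains and 305 to 361 FPKM in db/+ brains. The next levels in brain, over both genotypes, were medians of 46.7 FPKM for Sgk1 and 25.9 for Tsc22d3. Nfkbia (16.8), Hsd11b1 (14.3), Fkbp5 (13.7) and Cdkn1a (13.3) followed with ranges that overlapped one another. Nr3c1 had a median of 4.19 FPKM and Zbtb16 of 1.88 FPKM.

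The order was different in liver, where it also depended on genotype. In db/db livers Mt1 was the most abundant at a median of 1168 FPKM (758 to 2557), before Mt2 at 624 FPKM (376 to 2147) and Hsd11b1 at 244 FPKM (182 to 294). In db/+ livers Hsd11b1 had the highest median, 232 FPKM (204 to 312), before Mt1 at 122 FPKM (43.6 to 1466) and Mt2 at 49.5 FPKM (22.97 to 969). The ranges of those 3 genes overlapped in db/+ livers. Mt3 was at most 0.140 FPKM in any liver. Cdkn1a ranked 4 of 10 in db/db livers at a median of 22.98 FPKM and 8 of 10 in db/+ livers at 3.28 FPKM. The Mt2 to Mt1 ratio of FPKM was 0.593 to 0.717 in db/db brains and 0.544 to 0.654 in db/+ brains, and spread more widely in liver, where it was 0.378 to 0.891 in db/db livers against 0.292 to 0.661 in db/+ livers.

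**Figure D1:**
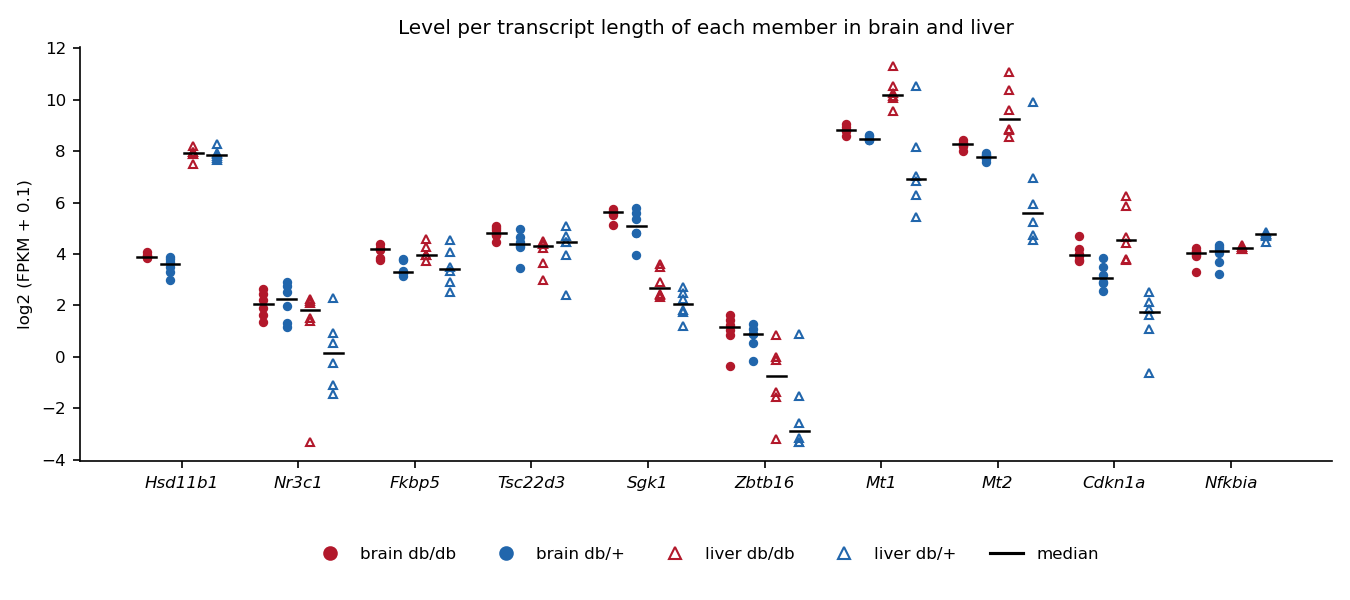
Abundance of each gene as log2 (FPKM + 0.1) in db/db brain, db/+ brain, db/db liver and db/+ liver, from left to right within each gene (6 libraries each, black bars at medians). Hsd11b1 lay far higher in liver, Sgk1 lay higher in brain, and Mt1 ran from 43.6 to 2557 FPKM among livers. Zbtb16 had higher medians in brain, with ranges that overlapped those in liver.

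Brain and liver were compared in 1 edgeR quasi-likelihood fit over the 24 libraries. This contrast depended on how the tissues were scaled: with TMM factors the median gene was 0.61 higher in brain (log2), and with library totals alone, an alternative added after seeing the data, it was 1.57 higher. Of the 10 genes, 2 were called higher in brain and 6 lower with TMM factors, where 50.6% of genes tested were called higher and 33.9% lower. With library totals alone, 4 were called, Hsd11b1, Sgk1, Zbtb16 and Nfkbia, in the same directions, beside 86.4% of all genes called in either direction. Brain Hsd11b1 was lower than liver by a log2 difference of -5.13 (SE 0.12, adjusted p = 1.21e-14), or -4.15 with library totals alone. Sgk1 was higher in brain by 2.08 (SE 0.21, adjusted p = 2.92e-07), or 3.07 with totals. Zbtb16 was higher by 2.72 (SE 0.87, adjusted p = 0.00995), or 3.59 with totals. Liver values of Zbtb16 ran from 0 to 11.2 CPM with several at or near 0, so that fold is uncertain. In FPKM its tissue ranges overlapped, at 0.687 to 2.97 in brain and 0 to 1.73 in liver. Nfkbia was lower by a log2 difference of -1.45 (SE 0.12, adjusted p = 3.46e-08), or -0.46 with totals (adjusted p = 0.00242).

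The other tissue calls rested on the scaling. Mt1 was lower in brain with TMM factors, at -1.38 (SE 0.34, adjusted p = 0.00153), and with totals stood at -0.40 (adjusted p = 0.271). Mt2 stood at -1.21 with TMM factors (SE 0.42, adjusted p = 0.0148) and at -0.23 with totals (adjusted p = 0.613); without 1 db/+ brazzein liver (replicate 2) it was at -0.48 with TMM factors (adjusted p = 0.0999), and Mt1 at -0.83. Fkbp5 was at -0.95 with TMM factors (SE 0.14, adjusted p = 1.07e-05) and turned to 0.03 with totals (adjusted p = 0.869). Tsc22d3 was at -0.64 with TMM factors (SE 0.24, adjusted p = 0.0242) and turned to 0.36 with totals (adjusted p = 0.165). The call was also lost with RLE size factors, at -0.535 (adjusted p = 0.0524). With TMM factors it was lost, at -0.34 to -0.59, without any 1 of 6 libraries (db/+ sucrose replicate 2 or db/db brazzein replicate 2 of brain, and db/+ sucrose replicate 2, db/+ water replicate 2, db/db sucrose replicate 1 or db/db water replicate 2 of liver). Neither Cdkn1a (-0.67, SE 0.35, adjusted p = 0.0904) nor Nr3c1 (0.32, SE 0.65, adjusted p = 0.66) passed with TMM factors, and Cdkn1a turned to 0.32 with totals. Cdkn1a passed at -0.80 without db/+ water replicate 1 of liver and at -0.78 without db/db brazzein replicate 1 of liver, and Nr3c1 passed at 2.67 without that same db/db brazzein liver.

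In brain, Fkbp5, Cdkn1a and both metallothioneins stood higher in db/db than in db/+ mice by modest factors. By the adjusted p of edgeR's quasi-likelihood test 0 of the 10 genes were called over the 3 drinks, 5 had an unadjusted p under 0.05, and DESeq2 called 4 (Fkbp5, Mt1, Mt2 and Cdkn1a). Of the 23653 genes tested, edgeR called 0.00846%, 13.8% had an unadjusted p under 0.05 and DESeq2 called 3.64%. The median log2 difference of the 10 was 0.40, with 8 above 0, beside a median of 0 over all genes tested. Since the list was chosen on this contrast, nothing is read from these counts.

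On the supply side, Hsd11b1 was at 33.2 and 36.5 CPM in db/db brains on brazzein, 34.5 and 33.5 on sucrose and 32.7 and 31.9 on water, against 26.03 and 34.5 CPM in db/+ brains on brazzein, 17.5 and 29.2 on sucrose and 22.1 and 32.9 on water. The db/db values were tight and lay at the upper end of the db/+ range, with a log2 difference of 0.33 (SE 0.15). The receptor gene Nr3c1 was at 22.4 to 54.3 CPM in db/db brains (median 37.6) and 20.3 to 68.1 CPM in db/+ brains (median 43.1), ranges that overlapped almost fully (log2 difference -0.16, SE 0.22).

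Of the receptor-induced genes, Fkbp5 was at 69.7 and 98.8 CPM in db/db brains on brazzein, 73.7 and 88.9 on sucrose and 95.2 and 97.9 on water. In db/+ brains Fkbp5 was at 69.9 and 50.2 CPM on brazzein, 71.2 and 49.1 on sucrose and 51.8 and 45.2 on water. Thus 5 of the 6 db/db brains lay above every db/+ brain, and the log2 difference was 0.64 (SE 0.14). Tsc22d3 was at 67.0 to 109.4 CPM in db/db brains (median 94.2) and 35.2 to 101.1 CPM in db/+ brains (median 69.3), with 2 db/db brains above every db/+ brain (log2 difference 0.43, SE 0.16). Sgk1 was at 129 to 212 CPM in db/db brains (median 191) and 58.7 to 217 CPM in db/+ brains (median 136). Its ranges overlapped fully at the top (log2 difference 0.46, SE 0.22). Zbtb16 was the least abundant, at 3.47 to 16.01 CPM in db/db brains (median 12.4) and 2.94 to 11.8 CPM in db/+ brains (median 9.32), with a log2 difference of 0.36 (SE 0.40) that turned to -0.07 without db/db sucrose replicate 2.

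The metallothioneins differed little between replicates in brain. Mt2 was at 217 and 218 CPM in db/db brains on brazzein, 194 and 231 on sucrose and 222 and 266 on water, against 173 and 183 CPM in db/+ brains on brazzein, 173 and 157 on sucrose and 144 and 153 on water. Every db/db brain lay above every db/+ brain, which held for Mt2 alone among the 10 genes in this direction and for 0.871% of all genes tested, while 0.989% had every db/db brain below. The log2 difference of Mt2 was 0.46 (SE 0.06). Mt1 was at 352 and 399 CPM in db/db brains on brazzein, 315 and 361 on sucrose and 371 and 404 on water, against 288 and 326 CPM in db/+ brains on brazzein, 294 and 313 on sucrose and 279 and 278 on water. All db/db brains except 1 on sucrose lay above every db/+ brain, and the log2 difference of Mt1 was 0.31 (SE 0.05). For Mt3 the log2 difference was 0.05 (SE 0.04, adjusted p = 0.71).

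Cdkn1a had the largest fitted difference of the 10 in brain, 0.89 on the log2 scale (SE 0.21). Levels of Cdkn1a were 37.7 and 48.7 CPM in db/db brains on brazzein, 36.97 and 45.2 on sucrose and 42.7 and 73.6 on water, against 25.9 and 31.7 CPM in db/+ brains on brazzein, 40.4 and 20.6 on sucrose and 20.7 and 16.2 on water. The water groups were farthest apart, and 1 db/+ sucrose brain reached into the db/db range. Nfkbia was at 20.7 to 41.9 CPM in db/db brains (median 37.4) and 20.8 to 47.2 CPM in db/+ brains (median 39.98), with no separation (log2 difference -0.05, SE 0.21).

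**Figure D2:**
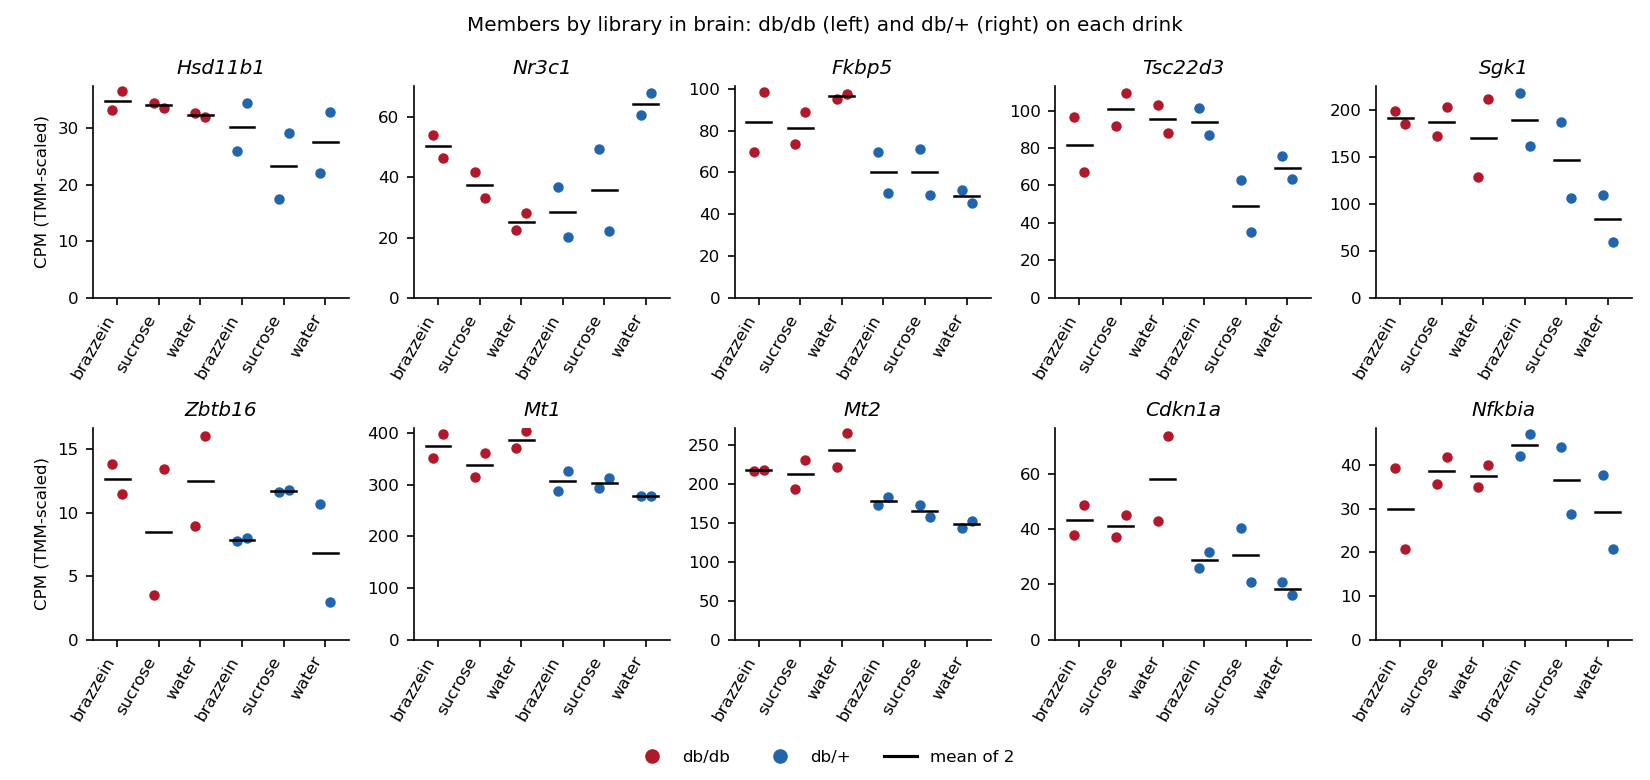
TMM-scaled CPM of each gene in the 12 brain libraries, db/db (red, left) and db/+ (blue, right) on brazzein, sucrose and water, with bars at the mean of 2 libraries. All db/db points for Mt2 lie above all db/+ points (194 to 266 against 144 to 183 CPM), and 5 of 6 do for Fkbp5 and Mt1.

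Summed markers of cell types were compared between these brains too, and most of the genotype ranges given here overlapped. The summed level of 7 choroid plexus markers, all present in the files, was 1159 to 1340 CPM in db/db brains and 773 to 1091 CPM in db/+ brains. Most of that sum was a single gene, Ttr, at 1077 to 1250 CPM in db/db and 713 to 1010 CPM in db/+ brains. The sum therefore says little about the other choroid plexus markers. The 6 erythroid markers summed to 1451 to 2603 CPM in db/db brains and 856 to 1909 CPM in db/+ brains. The 7 oligodendrocyte markers summed to 6734 to 7862 CPM in db/db and 7427 to 8517 CPM in db/+ brains, and the 7 astrocyte markers to 2349 to 2487 CPM in db/db and 2122 to 2835 CPM in db/+ brains. The 8 microglia and macrophage markers summed to 114 to 173 CPM in db/db brains (median 154.8) and 144 to 199 CPM in db/+ brains (median 189.2). The 7 neuronal markers summed to 5984 to 6329 CPM in db/db and 6063 to 6348 CPM in db/+ brains. For the 7 endothelial markers the sums were 157.8 to 180.9 CPM in db/db and 135.2 to 187.4 CPM in db/+ brains. The part of these cells in the differences of the 10 genes was not tested.

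In liver the genotype differences were larger for the metallothioneins and Cdkn1a, and Nfkbia went the other way. Over the 3 drinks edgeR's adjusted test called 2 of the 10 genes higher in db/db livers (Mt1 and Cdkn1a) and 1 lower (Nfkbia), beside 7.91% of 19352 genes called higher and 7.27% called lower. At an unadjusted p under 0.05 there were 5, beside 31.6% of all genes, and DESeq2 called 5, adding Mt2 and Zbtb16, beside 25.1% of all genes. The median log2 difference of the 10 was 1.09, with 7 above 0, beside a median of -0.03 over all genes tested. The list was chosen on this contrast too, and nothing is read from the counts. The calls of single genes given below are no evidence for those genes either, and show only how the fit depends on single livers.

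Hsd11b1 was at 365 to 656 CPM in db/db livers (median 527) and 465 to 703 CPM in db/+ livers (median 554). The 2 db/db livers on sucrose, at 365 and 443 CPM, were the lowest of all 12, and the log2 difference was -0.15 (SE 0.12). Nr3c1 was at 39.1 CPM and listed at 0 in the db/db livers on brazzein, at 33.6 and 18.97 on sucrose and at 23.3 and 40.8 on water. In db/+ livers Nr3c1 was at 0.269 and 6.83 CPM on brazzein, 42.3 and 16.4 on sucrose and 13.1 and 3.33 on water. An exact 0 in a table of expected counts can be a failed estimate, and the fitted log2 difference of 1.42 (SE 1.25) turned to -3.03 without db/db brazzein replicate 1.

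Fkbp5 did not separate the livers by genotype: it was at 58.5 to 113.7 CPM in db/db livers (median 76.8) and 29.9 to 116.4 CPM in db/+ livers (median 56.8), with a log2 difference of 0.41 (SE 0.21). Tsc22d3 was at 20.9 to 76.4 CPM in db/db livers (median 58.1) and 18.9 to 117.0 CPM in db/+ livers (median 85.5). Its log2 difference of -0.52 (SE 0.43) turned to 0.05 without db/+ water replicate 2. Sgk1 was at 13.9 to 39.5 CPM in db/db livers (median 20.7) and 7.36 to 21.8 CPM in db/+ livers (median 15.2), with 3 db/db livers above every db/+ liver (log2 difference 0.75, SE 0.32). Zbtb16 was at 0.0527 and 1.90 CPM in db/db livers on brazzein, 0.753 and 8.46 on sucrose and 5.86 and 5.31 on water. In db/+ livers it was at 0.448 and 11.2 CPM on brazzein, listed at 0 in both sucrose livers, and at 0.0506 and 1.86 on water, so no fold is given for it.

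Mt1 was at 848 and 1920 CPM in db/db livers on brazzein, 531 and 731 on sucrose and 911 and 1178 on water. In db/+ livers Mt1 was at 69.8 and 1201 CPM on brazzein, 34.5 and 90.6 on sucrose and 111 and 253 on water. Every db/db liver lay above 5 of the 6 db/+ livers, and the remaining one, a db/+ brazzein liver at 1201 CPM, was exceeded by 1 db/db liver. The log2 difference of Mt1 was 2.33 (SE 0.64), and 3.41 (SE 0.46) without that liver. The edgeR call for Mt1 was lost, at log2 differences of 2.10 to 2.63, without any 1 of 10 of the 12 livers, that is all except the 2 db/+ brazzein livers.

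For Mt2 the livers stood in a similar though not identical order. Levels of Mt2 were 339 and 1479 CPM in db/db livers on brazzein, 241 and 469 on sucrose and 316 and 950 on water, against 18.2 and 709 CPM in db/+ livers on brazzein, 18.9 and 27.6 on sucrose and 46.98 and 99.9 on water. The same db/+ brazzein liver stood apart, and only 2 db/db livers exceeded it. The log2 difference of Mt2 was 2.79 (SE 0.82) and was not called, but it was called without either db/+ brazzein liver, at 2.48 (SE 0.57) without replicate 1 and 4.25 (SE 0.65) without replicate 2.

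Cdkn1a was at 36.7 and 203 CPM in db/db livers on brazzein, 34.4 and 56.4 on sucrose and 55.5 and 158 on water, against 9.05 and 10.4 CPM in db/+ livers on brazzein, 5.5 and 15.99 on sucrose and 1.62 and 13.3 on water. Every db/db liver lay above every db/+ liver, as for 4.91% of all genes tested, and the log2 difference was 3.18 (SE 0.67). The call was lost without db/+ brazzein replicate 1 (3.16), db/+ sucrose replicate 1 (3.00), db/db sucrose replicate 2 (3.06) or db/db water replicate 2 (2.88). The call was kept at 3.93 without db/+ water replicate 2 and at 2.63 without db/db brazzein replicate 2, the extremes among single livers left out. Nfkbia was at 40.7 and 43.7 CPM in db/db livers on brazzein, 37.7 and 34.1 on sucrose and 41 and 39.6 on water. In db/+ livers Nfkbia was at 67.3 and 59.1 CPM on brazzein, 59.3 and 65.2 on sucrose and 52.2 and 67.96 on water. Every db/db liver lay below every db/+ liver, as for 3.51% of all genes tested, and the log2 difference was -0.65 (SE 0.09), or -0.71 to -0.57 without any 1 liver, with the call kept each time. Calls kept or lost here do not test genes that were chosen on this contrast.

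**Figure D3:**
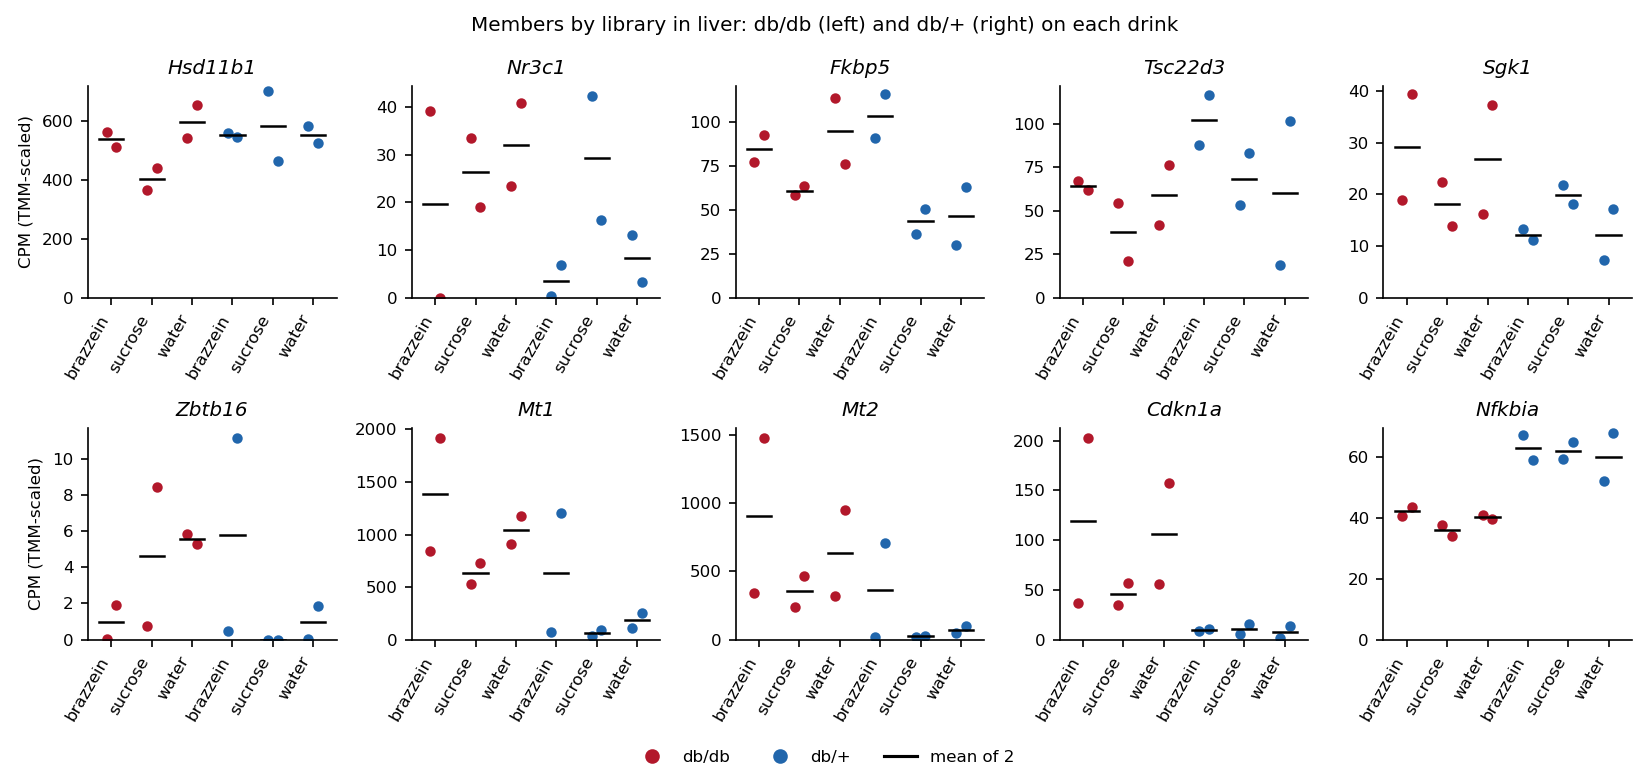
TMM-scaled CPM of each gene in the 12 liver libraries, drawn as for brain. Cdkn1a lies higher in every db/db liver (34.4 to 203 CPM) than in every db/+ liver (1.62 to 15.99 CPM), Nfkbia lies lower in every db/db liver, and 1 db/+ brazzein liver stands among the db/db livers for Mt1 and Mt2.

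Summed markers of other cells were compared between these livers as well, and the genotype ranges of each list given here overlapped. The 6 erythroid markers summed to 1101 to 3710 CPM in db/db livers and 659 to 1214 CPM in db/+ livers, and the 6 neutrophil markers to 4.12 to 11.2 CPM in db/db and 1.03 to 4.82 CPM in db/+ livers. The 7 hepatocyte markers overlapped, at 67180 to 95530 CPM in db/db and 67620 to 90150 CPM in db/+ livers. The 8 microglia and macrophage markers summed to 79.3 to 145 CPM in db/db livers and 45.6 to 162 CPM in db/+ livers, where 5 of the 6 db/+ livers, at 45.6 to 68.1 CPM, lay below every db/db liver. The 7 endothelial markers summed to 63.1 to 97.6 CPM in db/db livers and 46.4 to 94.5 CPM in db/+ livers. The part of these cells was not tested.

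The difference between genotypes was set against itself across tissues in the fit over all libraries, as brain minus liver. For Mt1 it was -2.03 (SE 0.67) on the log2 scale, for Mt2 -2.34 (SE 0.84) and for Cdkn1a -2.29 (SE 0.71), all 3 larger in liver. For Nfkbia it was 0.60 (SE 0.24), for Hsd11b1 0.47 (SE 0.20) and for Tsc22d3 0.95 (SE 0.49). edgeR's adjusted test called 0 of the 10, 5 had an unadjusted p under 0.05 (Mt1, Mt2, Cdkn1a, Nfkbia and Hsd11b1) and DESeq2 called 3 (Mt1, Mt2 and Cdkn1a). Of the 25725 genes tested, edgeR called 9.75%, 22.2% had an unadjusted p under 0.05 and DESeq2 called 17.6%. Without any 1 of 7 livers edgeR called 1 or 2: 2 without either db/+ brazzein liver, and 1 without db/+ sucrose replicate 2, either db/+ water liver, or the first-numbered library of db/db on brazzein or on water. This difference is built from the genotype contrasts on which the list was chosen, so its values are a description and nothing is read from these counts.

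**Figure D4:**
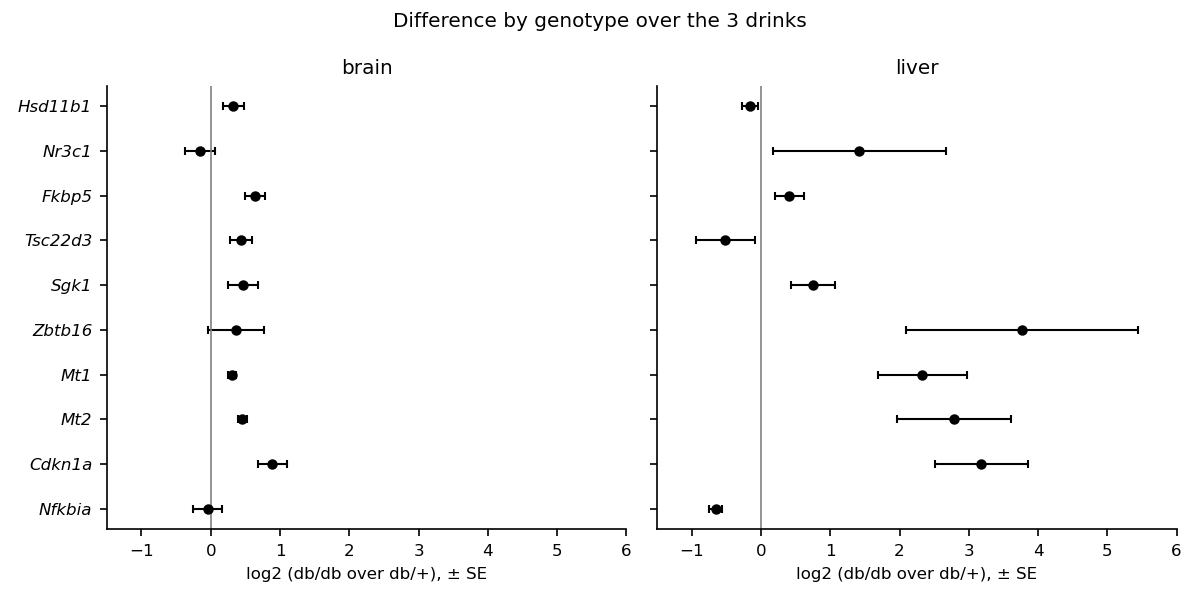
Fitted log2 difference of db/db over db/+ for each gene over the 3 drinks, in brain (left) and liver (right), with bars of 1 SE, worked back from the F statistic. Differences in brain lie between -0.16 and 0.89, while Mt1, Mt2 and Cdkn1a in liver lie between 2.33 and 3.18; the liver point of Zbtb16 rests on libraries at or near 0.

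No gene of the 10 passed the adjusted test for drink in brain. Over both genotypes edgeR called 0 of 10 for brazzein against water, sucrose against water and brazzein against sucrose, beside 0% of all genes in each. At an unadjusted p under 0.05 there were 1, 0 and 0, the 1 beside 4.61% of all genes, and DESeq2 called 0 in each. Within db/db brains edgeR called 0 in the same 3 contrasts, beside 0%, 0% and 0.00846% of genes, with 1 (beside 4.82% of genes), 0 and 0 unadjusted and 0 by DESeq2. Within db/+ brains edgeR called 0, beside 0%, 0% and 0%, with 3 (beside 4.86%), 0 and 1 (beside 3.18%) unadjusted and 0 by DESeq2. The genotype by drink term called 0 of 10, beside 0% of genes, with 3 unadjusted, beside 5.45% of genes, and 0 by DESeq2.

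The largest drink differences in brain were those of Sgk1 and Nr3c1. Sgk1 was at 199 and 184 CPM in db/db brains on brazzein, 171 and 203 on sucrose and 129 and 212 on water, and at 217 and 162 CPM in db/+ brains on brazzein, 187 and 106 on sucrose and 109 and 58.7 on water. Brazzein minus water was 0.67 over genotypes (SE 0.27, adjusted p = 0.993 by edgeR) and 1.17 within db/+ (SE 0.38, adjusted p = 0.916). Nr3c1 was at 54.3 and 46.5 CPM in db/db brains on brazzein, 41.9 and 33.3 on sucrose and 22.4 and 28.1 on water, while in db/+ brains it was at 36.7 and 20.3 CPM on brazzein, 49.5 and 22.3 on sucrose and 60.9 and 68.1 on water. Brazzein minus water was thus 1.00 in db/db (SE 0.39, edgeR adjusted p = 0.941) and -1.18 in db/+ (SE 0.39, edgeR adjusted p = 0.917), and the adjusted p of genotype by drink was 0.841. In db/+ brains Tsc22d3 was at 101.1 and 87.1 CPM on brazzein, against 62.9 and 35.2 CPM on sucrose, a log2 difference of 0.94 (SE 0.28, edgeR adjusted p = 1).

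In liver, too, no gene of the 10 passed edgeR's adjusted test for drink. Over both genotypes 0 were called for brazzein against water, sucrose against water and brazzein against sucrose, beside 0.0723%, 0.0155% and 0.145% of all genes, with 0, 0 and 3 at an unadjusted p under 0.05 and 0, 0 and 3 by DESeq2. For brazzein against sucrose 14.7% of all genes had such a p and DESeq2 called 6.44%. Within db/db livers 0 were called, beside 0.119%, 0.00517% and 0.16% of genes, with 0, 1 (beside 4.27%) and 0 unadjusted and 0 by DESeq2. Within db/+ livers 0 were called, beside 0.00517%, 0.0155% and 0.0207%, with 1 (beside 6.06%), 0 and 4 (beside 8.75%) unadjusted. DESeq2 called 0, 1 and 1 within db/+ livers, both times Zbtb16, beside 1.17% of genes for sucrose against water and 2.24% for brazzein against sucrose. Genotype by drink called 0, beside 0.062% of genes, with 1 unadjusted (beside 7.29%) and 1 by DESeq2 (Zbtb16, beside 1.97%).

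The 3 that DESeq2 called for brazzein against sucrose in liver were Fkbp5, Mt1 and Mt2. Fkbp5 was at 77.2 and 92.8 CPM in db/db livers on brazzein against 58.5 and 63.6 CPM on sucrose, and at 91.3 and 116 CPM in db/+ livers on brazzein against 36.5 and 50.6 CPM on sucrose. Within both genotypes the brazzein livers lay above the sucrose livers, as for 5.45% of all genes tested, and the log2 difference over genotypes was 0.87 (SE 0.25, adjusted p = 0.191 by edgeR). Water did not order the same way: Fkbp5 on water was at 114 and 76.3 CPM in db/db and at 29.9 and 63.0 CPM in db/+ livers. For Mt1 the log2 difference of brazzein over sucrose was 2.24 (SE 0.79, adjusted p = 0.247 by edgeR) and for Mt2 2.66 (SE 1.00, adjusted p = 0.272 by edgeR). The 2 db/+ brazzein livers lay far apart for both genes, and the lower one, at 69.8 CPM of Mt1, lay between the db/+ sucrose livers at 34.5 and 90.6 CPM. In db/db livers sucrose lay below water in the fit for each of the 10 genes, with a median log2 difference of -0.60, beside 50.9% of all genes below 0 and a median of -0.01. These 10 values come from the same few libraries and are not independent. In db/+ livers 4 of the 10 lay below 0 for sucrose against water, and in db/db livers 4 did for brazzein against water. For Hsd11b1 in db/db livers, at 365 and 443 CPM on sucrose against 542 and 656 CPM on water, the log2 difference was -0.57 (SE 0.20, adjusted p = 1 by edgeR).

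Other genes of the same pathways were followed in 6 lists of 91 names in all. The lists were drawn up with earlier results of these data known, so calls and p-values of listed genes are a description, not a test. In brain 0 of the 87 tested were called by genotype by edgeR, beside the background of 0.00846%, 15 had an unadjusted p under 0.05 (3275 of 23653 genes did) and DESeq2 called 5, beside 3.64% of all genes. All 5 belonged to the 24 other genes known to be induced by glucocorticoids, of which 19 had a log2 difference above 0 and the median was 0.15. Those 5 were Arrdc2, Gjb6, Map3k6, Per1 and Sult1a1, all higher in db/db brains by DESeq2. The 13 tested genes of receptor handling had a median of -0.05, the 9 of metal handling -0.04, the 12 p53 targets 0.02, the 13 NF-κB targets 0.01 and the 16 clock and immediate early genes -0.02.

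In liver edgeR called 15 of 85 listed genes by genotype, 10 higher and 5 lower, beside the 7.91% and 7.27% of all genes given above. Among them were 3 co-chaperone genes that were lower in db/db livers. Stip1, a co-chaperone that links the HSP70 and HSP90 chaperones, was at 30.1 to 43.5 CPM in db/db livers (median 36.6) and 46.03 to 95.95 CPM in db/+ livers (median 63.0; log2 difference -0.84, SE 0.12, adjusted p = 0.00453). Fkbp4, the co-chaperone that competes with the Fkbp5 product, was at 74.9 to 101.2 CPM in db/db livers and 110 to 187 CPM in db/+ livers (log2 difference -0.63, SE 0.09, adjusted p = 0.00462). Ptges3, the p23 co-chaperone, was at 69.1 to 89.4 CPM in db/db and 101.3 to 117.1 CPM in db/+ livers (-0.51, SE 0.07, adjusted p = 0.00474). For each of those 3 every db/db liver lay below every db/+ liver, as for the 3.51% of all genes given above. Hsp90ab1, an HSP90 chaperone gene, was called lower too (-0.39, SE 0.10, adjusted p = 0.0358), while Hsp90aa1, another, was at -0.87 (SE 0.25, adjusted p = 0.0509) and was not called. Srd5a1, a steroid reductase, was lower at -0.85 (SE 0.18, adjusted p = 0.0193), while Akr1d1, another steroid reductase, was higher at 1.15 (SE 0.29, adjusted p = 0.0357). The drug and steroid transporter gene Abcb1a was called higher, at medians of 11.9 CPM in db/db and 0.0171 CPM in db/+ livers, with 1 db/db liver at 0.0147 CPM and 1 db/+ liver at 6.002 CPM.

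Of the 23 other glucocorticoid-induced genes tested in liver, edgeR called 1, Nedd9, a scaffold protein gene, higher at 0.92 (SE 0.22, adjusted p = 0.0306), and the list's median was -0.17 with 9 above 0. DESeq2 called 8 of the 23, of which 5 were higher, beside 25.1% of all genes. The 12 p53 targets had a median of 0.81, and 3 were called, all higher: Ccng1, a cyclin (0.65, SE 0.15), Zmat3, a zinc finger RNA-binding protein (3.51, SE 0.80), and Gdf15, a stress cytokine (1.10, SE 0.31). Zmat3 was at 0.0147 to 7.15 CPM in db/db livers against 0.0179 to 0.250 CPM in db/+ livers. Of 13 NF-κB targets 2 were called, both higher: Tnfaip3, an inhibitor of NF-κB signalling (1.32, SE 0.28), and Ccl2, a monocyte chemokine (2.27, SE 0.38) whose levels were 0.816 to 2.68 CPM in db/db and 0.163 to 0.638 CPM in db/+ livers. Of 15 clock and immediate early genes 2 were called, both higher: Fosb, at medians of 0.519 CPM in db/db and 0.104 CPM in db/+ livers, and Nr4a1, at 2.81 CPM in db/db and 0.0690 CPM in db/+ livers. Each of these edgeR counts stands beside 7.91% of all genes called higher in db/db livers. Of 8 metal handling genes edgeR called 0, 3 had an unadjusted p under 0.05 (beside 31.6% of all genes) and DESeq2 called 3 (beside 25.1%), the transporter genes Slc39a4, Slc39a10 and Slc39a14. By drink edgeR called 1 listed gene: Plk2, a polo-like kinase and p53 target, was lower on brazzein than on sucrose in liver, by a log2 difference of -3.51 over genotypes (SE 0.42, adjusted p = 0.0343) and -5.09 within db/db (SE 0.64, adjusted p = 0.0359).

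Profiles were also compared directly, as the root mean square difference of log2 (CPM + 0.1) after centring each gene on its mean over the 12 libraries of a tissue, among genes of at least 1 CPM on average. This is a description over 12 libraries that share genotype and drink, with no test. Nearest to Fkbp5 in brain, among 16037 genes, were Map3k6 (0.158), Sult1a1 (0.168), Il12rb1 (0.189), Itga10 (0.193) and Klf15 (0.195), where a flat profile would differ by 0.395. Map3k6 and Sult1a1 were also in the list of other glucocorticoid-induced genes. Sult1a1, a sulfotransferase gene, was at 21.04 to 29.8 CPM in db/db brains (median 23.8) and 12.97 to 18.9 CPM in db/+ brains (median 17.1), without overlap (log2 difference 0.57, SE 0.07). Il12rb1 (1.74 to 2.79 CPM in db/db against 1.15 to 1.55 in db/+ brains) did not overlap either. Nor did Itga10 (3.46 to 5.04 against 2.43 to 3.33 CPM). Over all genes tested, 0.871% had every db/db brain above every db/+ brain. These genes were picked for their nearness to Fkbp5, itself chosen on the genotype contrast, so that share does not test their separation. Among the 10 genes, Mt2 ranked 18 in likeness to Fkbp5, Mt1 74 and Cdkn1a 179. Far behind ranked Sgk1 (4387), Tsc22d3 (6013), Hsd11b1 (8053), Nfkbia (11931), Zbtb16 (14205) and Nr3c1 (14741), each farther from Fkbp5 than a flat profile. In liver, Mt1 was nearest to Mt2 among 12566 genes, at 0.492 where a flat profile would differ by 2.15, before Gm45774 (0.756), Saa2 (0.799), Myom3 (0.808) and Tbc1d14 (0.851). Saa2, an acute phase protein gene, was at 64.9 to 230 CPM in db/db livers and 5.31 to 29.4 CPM in db/+ livers. Cdkn1a ranked 48 in likeness to Mt2, Zbtb16 357, Fkbp5 786 and Sgk1 1581. Hsd11b1 (6486), Tsc22d3 (7783), Nfkbia (9548) and Nr3c1 (12303) were each farther from Mt2 than a flat profile.

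**Figure D5:**
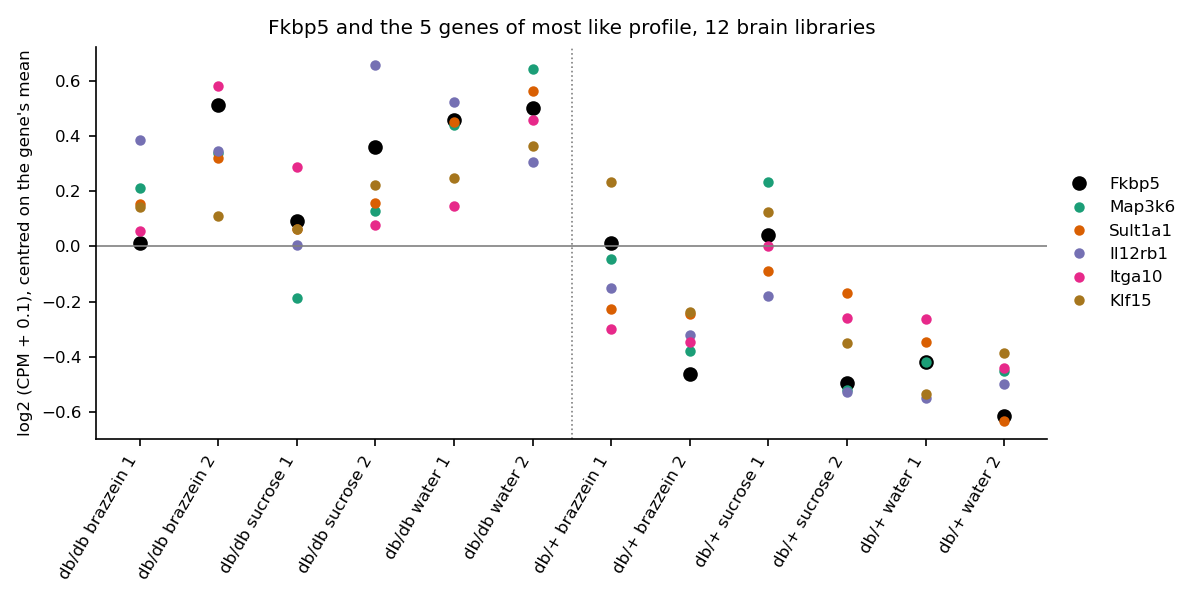
Centred log2 (CPM + 0.1) of Fkbp5 (black) and the 5 genes of nearest profile in the 12 brain libraries, db/db left of the dotted line and db/+ right. Sult1a1 and Il12rb1 each lie above their own mean in all 6 db/db brains and below it in all 6 db/+ brains.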

How the data were processed

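Per the labels' protocols, TRIzol RNA was selected for poly(A) and prepared with a NEBNext Ultra II kit, which keeps no strand, so reads of antisense or overlapping genes cannot be separated. The submitters' processing notes name bcl2fastq and GRCm39; aligner, counter and annotation: not given in the sources used here. The deposited per-sample files hold expected counts per gene symbol, whole numbers that were rounded as a safeguard and used for every test. The deposited series table holds a coverage signal, used for checks, and FPKM, used for levels between genes; dividing coverage by FPKM gives a constant per sample (6.09 to 8.37). In that table the 2 db/+ brazzein livers were taken as a group without numbers, because the headers of their count files name each other's replicate. Their 2 coverage columns were the only columns of sample values not used.

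Tests were quasi-likelihood tests of edgeR 4.0.16 in R 4.3.3, after filterByExpr and with TMM factors, in 1 fit of 6 groups per tissue (23653 brain and 19352 liver genes) and 1 of 12 groups over both (25725 genes). Benjamini-Hochberg adjustment ran over every gene of a fit, with a threshold of 0.05. Each SE was worked back from the edgeR test, as the size of the log2 difference divided by the square root of its F statistic. CPM are TMM-scaled within a tissue. The gene list and the pathway and marker lists were chosen with earlier results of these data known. Named besides the 10 genes were up to 4 called genes per list, contrast and direction by smallest p, and the 5 genes of profile nearest to Fkbp5 in brain and to Mt2 in liver; Mt3, Lepr, the marker genes Alb and Ttr, Arrdc2, Gjb6, Per1, Hsp90aa1, Hsp90ab1 and the 3 Slc39a genes were named after their values were seen. Alternatives were DESeq2 1.42.0, RLE size factors, no filter, a replicate block and each library left out in turn; library totals alone were added for the fit over both tissues. The code was tested on simulated data. Figures were drawn with matplotlib 3.10.9.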

Additional observations from a re-analysis of the deposited data

Results flagged for a closer look

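Each gene was checked for a library far from the other 5 of its tissue and genotype, over the 3 drinks, in 40 tests, of which chance alone flags about 1 in 20. The tests took no account of drink. Of the values, 5 stood apart, 3 of them in 1 library. In that db/+ brazzein liver (replicate 2), Mt1 was at 1201 CPM, against 34.5 to 253 in the other db/+ livers, Mt2 was at 709 CPM, against 18.2 to 99.9, and Zbtb16 was at 11.2 CPM, against 0 to 1.86. In brain, Cdkn1a was at 73.6 CPM in db/db water replicate 2, against 36.97 to 48.7 in the other db/db brains. Nfkbia was at 20.7 CPM in db/db brazzein replicate 2, against 34.96 to 41.9 in the other db/db brains.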

How the results depend on the processing

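Of 160 alternative values of the genotype difference of the 10 genes in each tissue, 150 in brain and 138 in liver kept their direction and their side of the threshold. DESeq2 called 4 genes by genotype in brain and 5 in liver, 3 for brazzein against sucrose in liver over genotypes, 1 for sucrose against water and 1 for brazzein against sucrose in db/+ livers, 1 for genotype by drink in liver and 3 for the genotype difference in brain minus that in liver. Those DESeq2 counts stand beside 1.17% to 25.1% of all genes, as given above for each contrast. The cause was not tested. With library totals alone 4 genes were called between brain and liver, beside 22228 of all genes tested. For the genotype difference between tissues 1 was called with totals, beside 2697 of all genes tested. Between brain and liver Fkbp5 turned to 0.027, Tsc22d3 to 0.36 and Cdkn1a to 0.32 with totals. Leaving out 1 library gave 1 to 4 genes called by genotype in liver, 0 to 2 for the difference between tissues and 7 to 10 between brain and liver, with fewer samples in each fit. Over the libraries left out, 5 genotype differences turned: Zbtb16 in brain ran from -0.066 to 0.764 (lowest without db/db sucrose replicate 2), Nfkbia in brain from -0.225 to 0.117 (above 0 without db/db brazzein replicate 2 or the first db/+ library on sucrose or water), Nr3c1 in brain from -0.312 to 0.073 (above 0 without the first db/+ library on brazzein or sucrose), Tsc22d3 in liver from -0.797 to 0.054 (above 0 without db/+ water replicate 2) and Nr3c1 in liver from -3.028 to 2.682 (below 0 without db/db brazzein replicate 1).

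Same-numbered libraries did not deviate together (correlations of -0.049 to 0.052 in brain, -0.117 to 0.093 in liver and -0.031 to 0.047 between tissues, none above 0.1), so the numbers are not taken as pairs. With the replicate block, 5 genes were called by genotype in liver, adding Mt2 (2.85, SE 0.596) and Zbtb16, beside 2523 of all genes tested. For the difference between tissues 2 were called with the block, beside 2347 of all genes tested. RLE size factors and no filter on low counts changed none of these counts by more than 1.5 times, though RLE ended the call of Tsc22d3 between brain and liver (-0.535).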
